A study of Homo sapiens with 20 samples.

Results

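Chromosome 12 carried 1567 of the 28903 bait fragments listed in a Poised Enhancer Capture Hi-C matrix, and the 13125 listed contacts with both ends on it are described here, out of 182303 contacts within chromosomes and 766138 contacts in all. They were chosen by chromosome alone for the bait and the other end, but the chromosome itself was chosen because its number of called contacts stood above that of the other autosomes, so that excess is given as a description with no test. Contacts between chromosomes, 38828 from chromosome 12 baits and 33136 to other ends on chromosome 12 from baits elsewhere, played no part in that choice and are set beside it.

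Each of 10 conditions was represented by 2 of the 20 libraries. The human embryonic stem cell line HNES1 was collected as naive cells (on mouse feeder cells with a MEK inhibitor, LIF, Gö6983 and XAV939), then at day 1, day 3, day 5, day 7, day 10 and day 14 of its transition to the primed state in N2B27 medium with XAV939 and no feeders. Day 14 HNES1 cells were also differentiated to definitive endoderm (DE; first with Activin A, CHIR99021, FGF2, PI-103, BMP4 and heparin, then with Activin A, PI-103, FGF2, LDN193189 and heparin) and to neuroectoderm (NE; 10 days with A8301 and LDN193189, then sorted for CD56 and against EpCAM). H9, a separate primed embryonic stem cell line kept in E8 medium without feeders, was the only condition not made from HNES1. Line, medium and culture history therefore cannot be told apart in any difference between HNES1 and H9, although day 14 HNES1 and H9 are both labelled primed.

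Poised enhancers are DNA elements held by Polycomb in pluripotent cells, often close to genes that act later in development. In the assay, fixed chromatin is cut with DpnII, which recognises the bases GATC, nearby fragments are ligated, and ligation products that hold a bait are pulled out with RNA probes. CHiCAGO, the caller named in the labels, then scores each pair of a bait and another fragment against the contacts that distance and noise alone would give.

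The deposited matrix held 1 score per contact and condition, pooled over both libraries, so replicates could not be compared and conditions could not be tested against each other. A contact was taken as called at a score of 5 or more. On chromosome 12 the nearest scores on either side of that threshold were 5.00001 and 4.99996, with 6264 scores up to 0.5 above it and 2349 up to 0.5 below it. Intervals given below are exact Poisson 95% intervals unless named otherwise, and they cover counting error only.

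RefSeq promoters that lie whole inside a chromosome 12 bait are the part of the captured sequence that could be printed, from a small part of the 1567 baits. There were 73 such windows of protein-coding genes, from 62 genes, and 10 of them fell in the first 15 Mb of the short arm, the stretch on which the values below turn. The 4 shown are of genes there that act in WNT signalling (WNT5B, a ligand), calcium entry (CACNA1C, a channel subunit) and glutamate signalling (GRIN2B, a subunit of the NMDA receptor, with both of its listed starts). Each runs 5′ to 3′ on the gene's strand (RefSeq, GRCh38.p14, 300 bases), with the dinucleotide CG in capitals.
WNT5B, chr12:1628981-1629280, plus strand: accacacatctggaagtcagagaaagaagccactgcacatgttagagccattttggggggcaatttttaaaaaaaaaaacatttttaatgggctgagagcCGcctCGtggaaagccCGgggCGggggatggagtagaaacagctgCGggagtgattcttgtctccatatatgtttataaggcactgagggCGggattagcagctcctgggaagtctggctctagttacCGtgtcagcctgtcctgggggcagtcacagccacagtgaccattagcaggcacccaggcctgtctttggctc
CACNA1C, chr12:2052737-2053036, plus strand: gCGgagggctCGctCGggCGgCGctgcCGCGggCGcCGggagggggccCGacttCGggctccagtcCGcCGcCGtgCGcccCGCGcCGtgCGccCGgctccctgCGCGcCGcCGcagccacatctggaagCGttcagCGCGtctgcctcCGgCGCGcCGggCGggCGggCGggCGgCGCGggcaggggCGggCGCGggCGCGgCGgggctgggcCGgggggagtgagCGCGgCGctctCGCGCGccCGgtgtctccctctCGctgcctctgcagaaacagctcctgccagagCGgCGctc
GRIN2B, chr12:13980796-13981095, minus strand: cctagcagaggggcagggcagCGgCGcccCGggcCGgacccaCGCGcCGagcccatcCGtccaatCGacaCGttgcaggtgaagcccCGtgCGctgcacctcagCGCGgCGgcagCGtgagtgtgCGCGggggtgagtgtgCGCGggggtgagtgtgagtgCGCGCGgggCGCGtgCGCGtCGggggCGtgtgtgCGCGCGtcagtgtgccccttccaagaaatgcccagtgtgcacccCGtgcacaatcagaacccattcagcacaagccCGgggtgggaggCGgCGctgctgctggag
GRIN2B, chr12:13982085-13982384, minus strand: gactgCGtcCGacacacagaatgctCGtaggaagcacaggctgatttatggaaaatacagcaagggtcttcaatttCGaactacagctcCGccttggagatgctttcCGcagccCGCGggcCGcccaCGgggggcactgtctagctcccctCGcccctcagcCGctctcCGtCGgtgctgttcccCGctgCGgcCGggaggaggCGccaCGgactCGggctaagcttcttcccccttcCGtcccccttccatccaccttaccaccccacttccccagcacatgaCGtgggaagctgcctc

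The 73 windows held a median of 29 CG dinucleotides, against 14 over all 35116 RefSeq promoter windows. GATC, which reads the same on both strands, was in 0% of the 73 and in 41.7% of all promoter windows. That 0% follows from how the windows were picked, since a fragment cut at GATC holds no GATC inside it. The CG medians compare unlike sets for the same reason, and whether the picking raised the CG count was not tested. The first GRIN2B window had 36 CG dinucleotides and the second 22, CACNA1C had 54 and WNT5B had 7.

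In each of the 10 conditions, chromosome 12 had more called contacts within the chromosome per bait than any other autosome, and HNES1 stood further above the other autosomes than H9 did. The measure was the number of called contacts per listed bait, divided by the median of the same over the other 21 autosomes. It was 1.44 in naive cells, 1.55 at day 1, 1.48 at day 3, 1.51 at day 5, 1.43 at day 7, 1.54 at day 10, 1.57 at day 14, 1.49 in DE and 1.42 in NE, against 1.27 in H9. The H9 interval was 1.21 to 1.33, and all 9 HNES1 values lay above it. The HNES1 mean was 1.49 ± 0.0543, where the SD is over 9 conditions and not over replicates. The HNES1 mean over the H9 value was 1.17, the highest of the 22 autosomes, with chromosome 16 next at 1.07.

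Over the whole chromosome the excess was seen in both lines and was smaller in H9. Chromosome 5, the next highest by level, had 1.23 as its HNES1 mean and 1.24 in H9, and chromosome 11 had 1.13 in HNES1 and 1.13 in H9. In H9 the interval of chromosome 5 (1.18 to 1.30) overlapped that of chromosome 12. In raw numbers chromosome 12 had 1457 calls in naive cells, 1524 at day 1, 1805 at day 3, 1719 at day 5, 1482 at day 7, 1547 at day 10, 1722 at day 14, 2278 in DE and 2514 in NE, against 1576 in H9. These raw counts of the 2 lines overlapped, because the total over autosomes also differed between conditions. It was 18035 to 22354 in the 7 naive and transition conditions, 29187 in DE and 32189 in NE, against 23194 in H9. As a share of those totals, chromosome 12 held 8.51% at day 14 (Wilson 95% interval 8.13 to 8.90) and 7.80% in DE, the lowest HNES1 share, against 6.79% in H9 (6.48 to 7.13). Its baits were 5.58% of all autosomal baits.

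**Figure D1:**
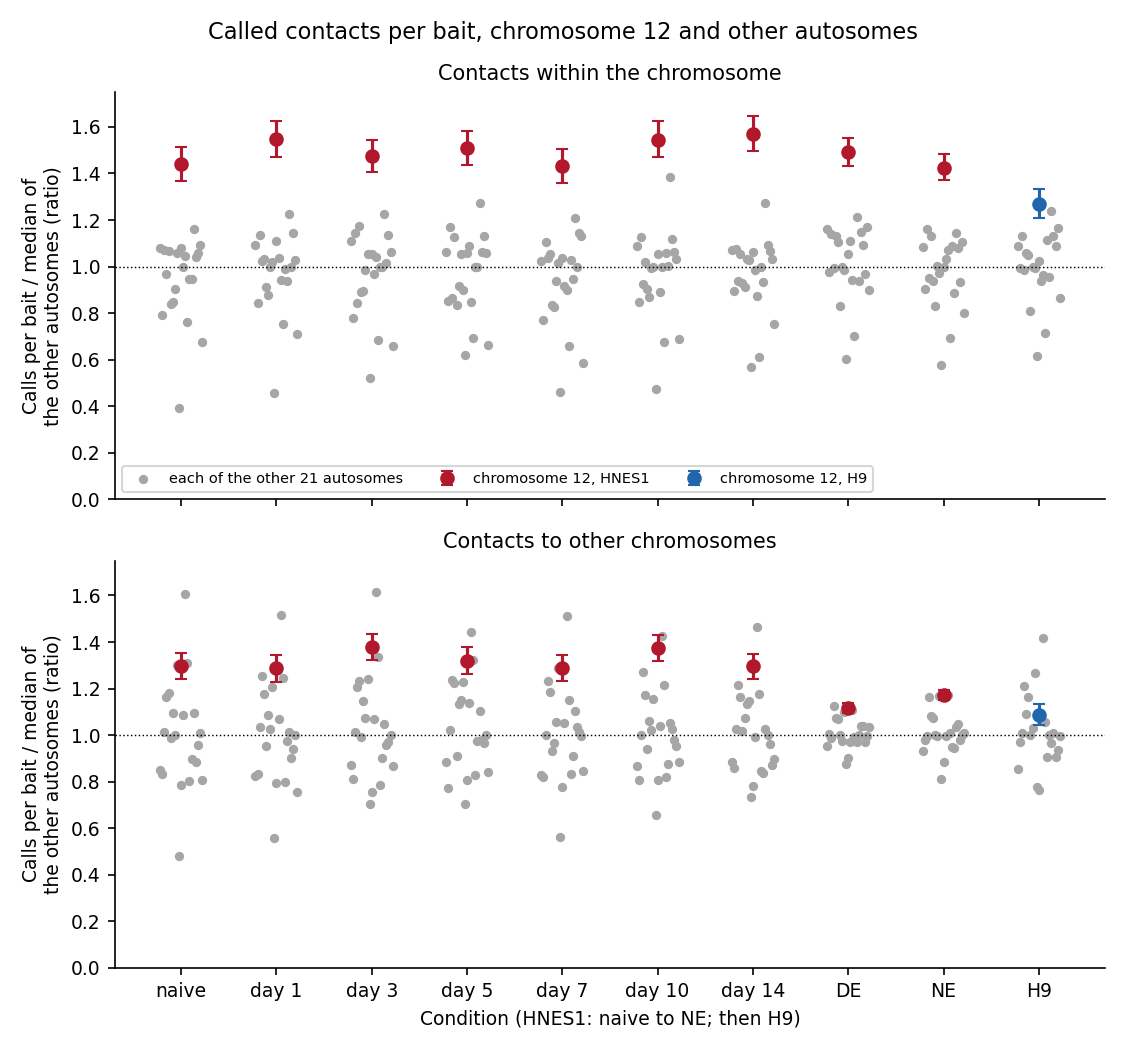
Called contacts per bait over the median of the other autosomes (ratio, vertical axis) in each condition (horizontal axis), for contacts within the chromosome and from chromosome 12 baits to other chromosomes. Red and blue points are chromosome 12 in HNES1 and H9 with Poisson 95% intervals, and grey points are the other 21 autosomes. Within the chromosome the red points lie between 1.42 and 1.57, above the H9 point at 1.27, and between chromosomes they lie between 1.12 and 1.38, above the H9 point at 1.09.

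The excess came from more baits with a contact and from more contacts for each such bait. At day 14, 48.2% of chromosome 12 baits had at least 1 call within the chromosome, against 38.8% on the other autosomes, and these baits averaged 2.28 calls, against 1.80. In H9 the share was 48.2% on chromosome 12 and 42.2% on the other autosomes, with 2.08 and 1.93 calls per such bait. The bait fragments did not differ much in size, with a median of 618 bases on chromosome 12 and 621 elsewhere. The median distance of called contacts on chromosome 12 was 208 kb in naive cells, 176 kb at day 14, 205 kb in NE and 200 kb in H9, against 224 kb in naive cells, 211 kb at day 14, 222 kb in NE and 222 kb in H9 on the other autosomes. Day 14 had the widest gap. The first 15 Mb lay above the other autosomes in H9 (231 kb) and also in naive cells (229 kb), day 3, day 10 and NE. In the remaining HNES1 conditions this stretch lay below them.

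A larger share of the chromosome 12 contacts was called in several conditions. Of the 13125 listed contacts, 6.16% were called in 3 or more of the 9 HNES1 conditions (Wilson 95% interval 5.76 to 6.58), against 3.66% of 166170 on the other autosomes (3.57 to 3.75). Still, 81.2% of chromosome 12 contacts and 86.0% of those elsewhere were called in a single condition of the 10. The same calls led to the choice of the chromosome, so these shares only describe it, and their intervals treat contacts as independent.

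In the contacts between chromosomes, which were not used to choose the chromosome, HNES1 again stood above H9. The same ratio for chromosome 12 baits was 1.30 in naive cells, 1.29 at day 1, 1.38 at day 3, 1.32 at day 5, 1.29 at day 7, 1.37 at day 10, 1.29 at day 14, 1.12 in DE and 1.17 in NE, against 1.09 in H9 (1.04 to 1.13). All 9 HNES1 values were above H9, and DE alone was inside the H9 interval. The HNES1 mean was 1.28, which is 1.18 times H9 and the highest such value of the 22 autosomes, followed by chromosome 22 at 1.13. By level, chromosome 12 was second in HNES1 and sixth in H9, so it did not lead as it did within the chromosome.

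Chromosome 12 as the other end of baits elsewhere gave a like value. Its calls per Mb, over the median of the other autosomes, averaged 1.31 in HNES1 (lowest 1.23, highest 1.39), against 1.12 in H9 (1.07 to 1.17). This was 1.18 times H9, ahead of chromosome 14 at 1.16 and chromosome 5 at 1.15. The same libraries and the same pooled scores lie behind all 3 measures.

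Along the chromosome, the difference between HNES1 and H9 was uneven. Chromosome 12 was split into 27 bins of 5 Mb, 26 of which had at least 10 baits. Within the chromosome, the HNES1 mean lay above H9 in 18 of 26 bins, while 50.1% of all such autosomal bins did. All 9 HNES1 conditions lay above H9 in 7 of 26 bins, against 12.1% of all autosomal bins. For contacts from chromosome 12 baits to other chromosomes the numbers were 20 of 26 (background 56.5%) and 5 of 26 (background 12.1%). For other ends they were 14 of 26 (background 54.5%) and 6 of 26 (background 14.8%), so the first of these was at the background.

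**Figure D2:**
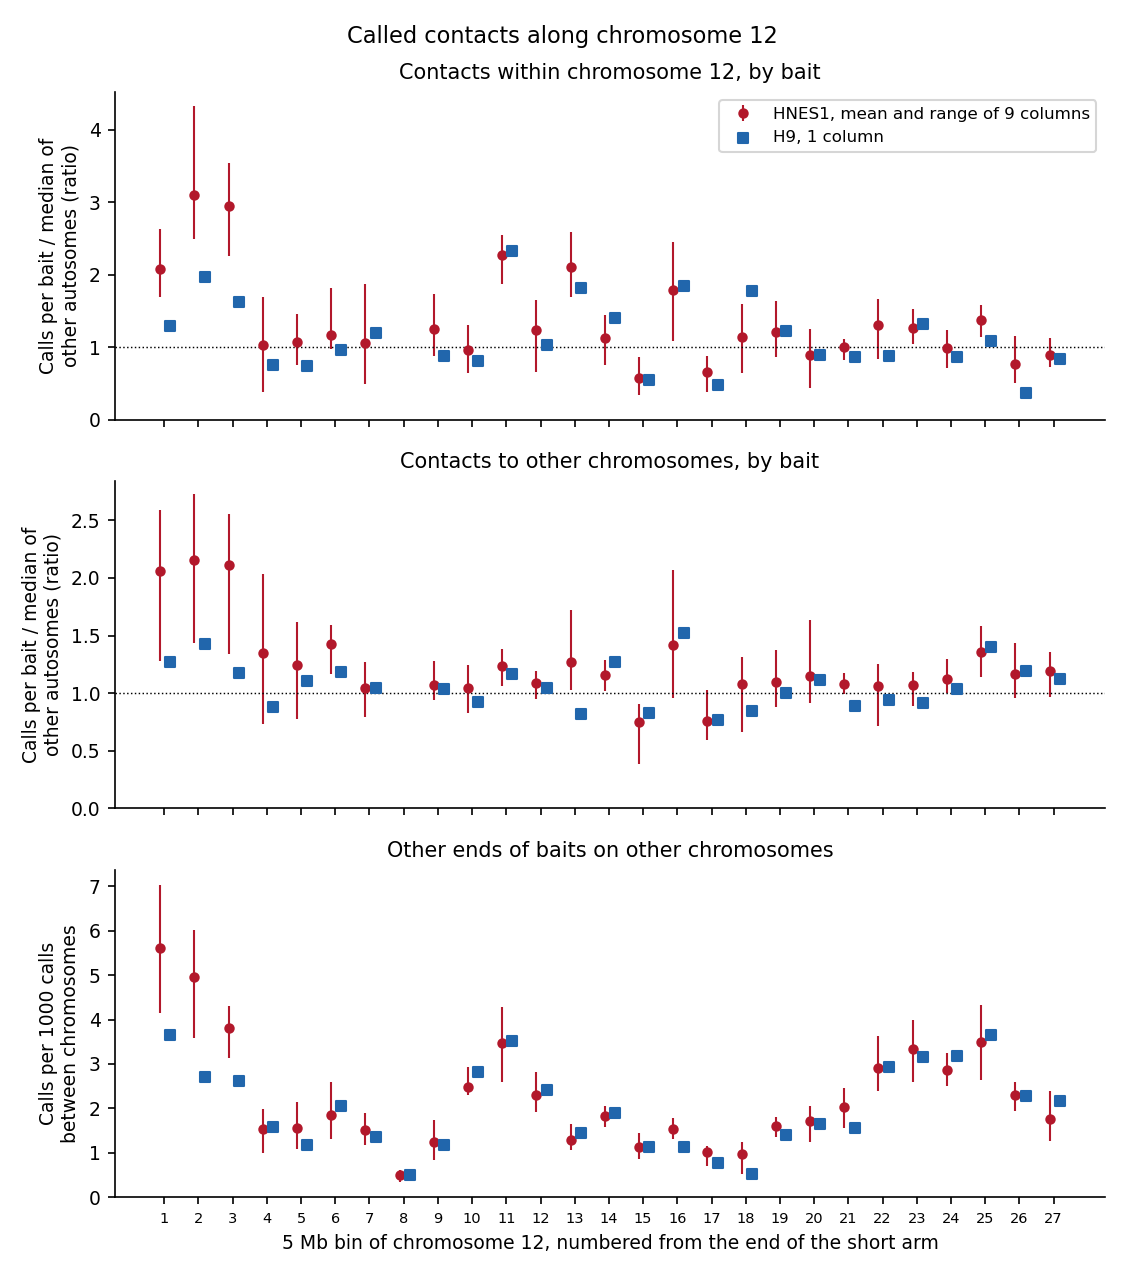
Called contacts in each 5 Mb bin of chromosome 12, numbered from the end of the short arm (horizontal axis), as calls per bait over the median of the other autosomes (upper and middle panels) or calls per 1000 calls between chromosomes (lower panel). Red points and lines are the mean and the lowest to highest of 9 HNES1 conditions, and blue squares are H9. In bins 1 to 3 all HNES1 values lie above H9 in all panels, and bin 11, which holds HOXC, is high in both lines.

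The 5 bins with the highest ratio of HNES1 to H9 within the chromosome were 125 to 130 Mb (2.07), 10 to 15 Mb (1.82), 0 to 5 Mb (1.62), 5 to 10 Mb (1.58) and 105 to 110 Mb (1.48). The 5 lowest were 85 to 90 Mb (0.643), 65 to 70 Mb (0.807), 30 to 35 Mb (0.889), 110 to 115 Mb (0.958) and 75 to 80 Mb (0.967). The bin at 125 to 130 Mb rested on few calls, 16 to 39 in the HNES1 conditions against 14 in H9, and in contacts to other chromosomes its ratio was 0.978. The 3 bins at the end of the short arm were high in all 3 measures. From baits to other chromosomes their ratios were 1.62, 1.51 and 1.79 in order from the end, and as other ends 1.54, 1.83 and 1.46.

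Those 3 bins, the first 15 Mb, held 224 baits (14.3% of the chromosome's baits) and were pooled after their values had been seen. Within the chromosome they had 306 calls in naive cells, 355 at day 1, 389 at day 3, 400 at day 5, 359 at day 7, 373 at day 10, 423 at day 14, 683 in DE and 673 in NE, against 272 in H9. Every HNES1 condition thus had more calls there than H9 even in raw numbers, although 7 of the 9 had fewer calls over all autosomes than H9. Over the autosomal median per bait, the HNES1 values ran from 2.11 in naive cells to 3.13 in DE with a mean of 2.54, against 1.53 in H9 (1.36 to 1.73). The mean was 1.65 times H9, and 1.59 times over the 7 naive and transition conditions. Read counts and the copy number of this stretch in either line were not analysed here, so these values do not say whether the baits made more contacts per copy.

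Contacts of the same 224 baits to other chromosomes showed the same order. There were 503 calls in naive cells, 452 at day 1, 591 at day 3, 503 at day 5, 493 at day 7, 599 at day 10, 599 at day 14, 1955 in DE and 1900 in NE, against 393 in H9. The ratio to the autosomal median was 2.08 to 2.47 in the naive and transition conditions, 1.33 in DE and 1.56 in NE, against 1.29 in H9 (1.16 to 1.42). DE and NE were thus nearer to H9 here, with DE inside its interval, while within the chromosome they were among the highest. DE and NE had far more calls between chromosomes than the other conditions, with an autosomal median of 6.55 and 5.43 calls per bait against 1.36 in H9. As other ends, the first 15 Mb took 10.9 to 15.8 of every 1000 calls between chromosomes in HNES1, against 8.97 in H9 (8.01 to 10.0).

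Since the stretch was picked for HNES1 values above H9, its finer pieces only describe how that difference was laid out. Over its 11 intervals of 1 Mb with at least 5 baits, the ratio of the HNES1 mean to H9 ran from 1.21 to 2.03 within the chromosome and from 1.20 to 1.96 between chromosomes. Among 180 autosomal windows of 15 Mb with at least 50 baits, the first 15 Mb of chromosome 12 had the highest HNES1 mean in both measures. Its ratio to H9 within chromosomes came after those of 60 to 75 Mb of chromosome 7 (1.85) and 135 to 150 Mb of chromosome 1 (1.73). Between chromosomes its ratio was the highest, followed by 15 to 30 Mb of chromosome 3 (1.53). The window's size and place followed from these data, so its rank is a description too.

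Without the first 15 Mb, less of the difference between the lines was left. The ratio within the chromosome then averaged 1.32 in HNES1 and was 1.23 in H9, which is 1.07 times, with 7 of 9 HNES1 conditions above H9. From the remaining baits to other chromosomes it was 1.14 against 1.05, or 1.09 times. For other ends, calls per Mb over the autosomal median were then 1.07 times H9, against 1.18 times for the whole chromosome. By the other measure, a share of calls, other ends outside the first 15 Mb took 46.3 of every 1000 calls between chromosomes in HNES1 and 45.5 in H9.

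The other stretch with many contacts, 50 to 55 Mb, holds the HOXC cluster, homeobox genes that pattern the body axis and are bound by Polycomb in pluripotent cells. Its 223 baits had 270 calls in naive cells, 335 at day 1, 390 at day 3, 405 at day 5, 333 at day 7, 350 at day 10, 397 at day 14, 475 in DE and 514 in NE, against 410 in H9. Over the autosomal median the HNES1 mean was 2.28 (1.87 to 2.54), against 2.32 in H9, and 4 of 9 HNES1 conditions were above H9. The level was high in both lines and did not separate them. The calls of chromosome 12 beyond the autosomal median split differently in the 2 lines. In HNES1, 36.3 to 62.0% of them lay in the first 15 Mb and 28.3 to 41.9% in 50 to 55 Mb, against 28.2% and 69.6% in H9. The 1120 baits outside both stretches stood at 1.13 times the autosomal median in the HNES1 mean (1.03 to 1.22). In H9 they stood at 1.01 (0.943 to 1.08), so H9 showed no clear excess there.

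**Figure D3:**
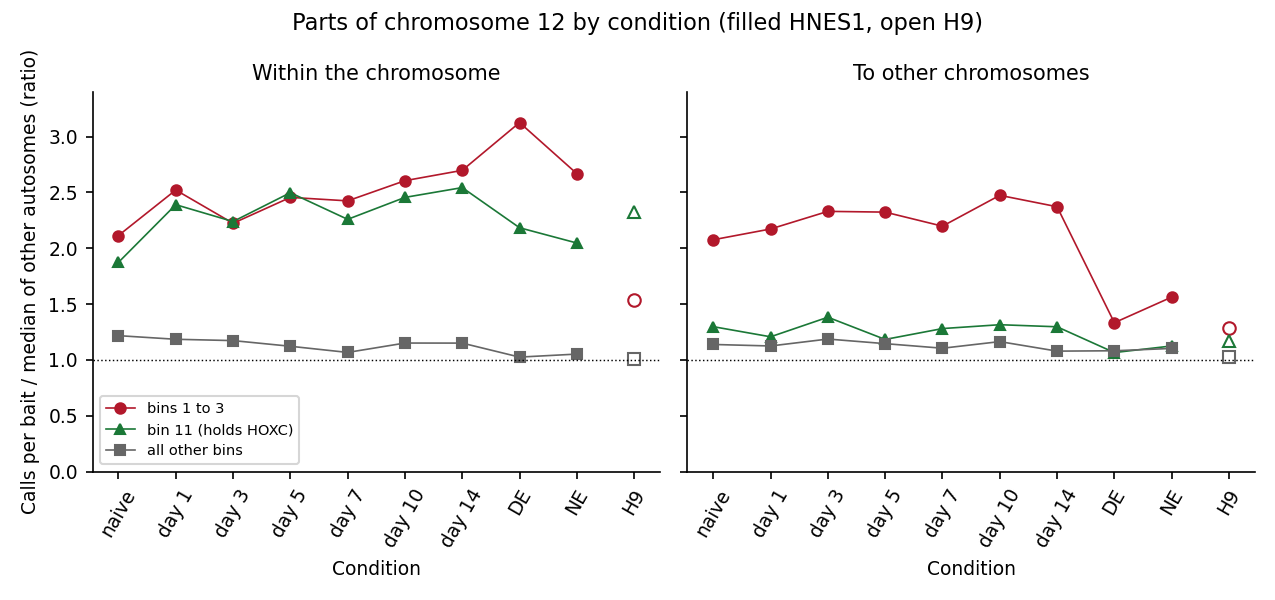
Called contacts per bait over the median of the other autosomes (ratio, vertical axis) by condition (horizontal axis) for the first 15 Mb (bins 1 to 3, circles), 50 to 55 Mb (bin 11, triangles) and all other bins (squares), within the chromosome and to other chromosomes. Filled symbols are HNES1 and open symbols are H9. The circles lie above the H9 value of their own stretch in every condition, while the triangles of both lines overlap within the chromosome.

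Stronger contacts were few, and the gap of their mean ratio was wider within the chromosome, with no clear gap between chromosomes. At a score of 10 or more the ratio for chromosome 12 was 1.81 to 3.42 in HNES1, against 1.65 in H9, on 32 to 107 calls in HNES1 and 50 in H9. In the first 15 Mb there were 9 to 45 such calls in HNES1 and 4 in H9. No interval is given for these small counts, so how far the lines differ at this score is uncertain. Between chromosomes at that score, baits of the first 15 Mb had 24 to 50 calls in HNES1, against 23 in H9, and only 3 of 9 ratios lay above H9 (mean 1.08 against 0.985). As other ends, the stretch took 6.12 per 1000 such calls in HNES1 and 3.92 in H9, with 6 of 9 above.

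Contacts in the first 15 Mb recurred over conditions more often than on the rest of chromosome 12, although 74.1% were called in a single condition of the 10, against 83.2% there. Of 2812 listed there, 9.78% were called in 3 or more HNES1 conditions (Wilson 95% interval 8.74 to 10.9), against 5.17% of the 10313 on the rest of chromosome 12 (4.76 to 5.61). In the stretch 220 contacts, 7.82%, were called in 3 or more HNES1 conditions and not in H9. The share was 3.55% on the rest of the chromosome and 2.59% on the other autosomes. The stretch was picked for more calls in HNES1 than in H9, so these shares only describe it. Contacts joining 2 baits were rare, with 1 to 10 in the stretch in HNES1 and 2 in H9.

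By bait, the share with more calls in HNES1 was close to the background. Of 1433 chromosome 12 baits with a listed contact within the chromosome, 916 (63.9%) had more calls in the HNES1 mean than in H9, while 61.3% of all autosomal baits did. In the first 15 Mb, which was picked for this difference, it was 158 of 212 baits, and on the rest of chromosome 12 it was 62.1%. These shares use raw calls, and a mean of 9 conditions that includes DE and NE exceeds a single small count in most baits.

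The 10 baits with most calls over all conditions lay mainly in those 2 stretches. The bait at EMP1, a gene for an epithelial membrane protein (13203430 to 13204485), had 8 to 23 calls in HNES1 with a median of 15, against 15 in H9. The bait at ZNF385A, a zinc finger gene (54367871 to 54368525), had 6 to 20 calls in HNES1 against 17 in H9. In raw calls both were as high in H9 as in HNES1. The bait just outside NTF3, the gene of the nerve growth factor neurotrophin-3 (5429400 to 5429892), had 7, 10, 7, 11, 8, 12 and 6 calls from the naive state to day 14, then 29 in DE and 22 in NE, against 5 in H9, so that all 9 HNES1 conditions were above H9. A bait with no gene within 1 kb, at 5200364 to 5201055, had 6 to 19 calls in HNES1 and 3 in H9. In the HOXC cluster it was the other way round at the bait in HOXC4 (54049237 to 54052135), with 5 to 18 calls in HNES1 and 18 in H9, where 0 of 9 lay above H9. Others of the 10 lay within 1 kb of NCKAP1L, of SMUG1, of CUX2 or of HOXC4, HOXC5 and HOXC6 together. The bait at 4266480 to 4268797 had no gene within 1 kb.

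There were 14 contacts called in all 9 HNES1 conditions, 0.107% of those listed on chromosome 12, against 0.0337% on the other autosomes. The 5 of the 14 with the highest scores summed over conditions are described. Each was also called in H9. The bait at 54006325 to 54006618, in the HOXC region, gave 3 of them. Those 3 joined it to fragments about 200 kb away, between 54198097 and 54213264. Their scores did not separate the lines, with 5.50 to 29.1 in HNES1 and 20.3 in H9 for the first of the 3. Another joined 4857481 to 4857848 with 5000194 to 5005253 and scored 8.16 to 20.8 in HNES1, against 6.36 in H9. The last joined 5200364 to 5201055 with a fragment in NTF3 (5440396 to 5445608), 242293 bases away, and scored 6.27 to 14.5 in HNES1, against 8.97 in H9. The contact at 4857481 was the one of these with every HNES1 score above H9.

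Genes were linked to a contact where they overlapped the bait or the other end, widened by 1 kb. Calls per gene are raw counts, not scaled to the total calls of a condition. Those totals were 18035 to 22354 up to day 14, 29187 in DE and 32189 in NE, against 23194 in H9. Of 1024 protein-coding genes annotated on chromosome 12, 798 were linked, and 521 of these (65.3%) had more calls in the HNES1 mean than in H9, while 64% of autosomal genes did. In the first 15 Mb it was 113 of 138 genes, with a median difference of 0.556 calls, against 0.111 on the rest of the chromosome. The same calls led to the choice of that stretch, so its gene count adds nothing to it.

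Of the 5 protein-coding genes with the largest surplus of calls in HNES1, GRIN2B, ERC1 and NTF3 lie in the first 15 Mb. GRIN2B (13537337 to 13982134) had 18 calls in naive cells, 24 at day 1, 34 at day 3, 30 at day 5, 20 at day 7, 22 at day 10, 33 at day 14, 47 in DE and 39 in NE, against 13 in H9. Every HNES1 condition was above H9. At the baits that hold the promoter sequences printed above there were few of these calls, with 0 to 3 in any condition at either GRIN2B start. ERC1, a scaffold gene of the presynaptic active zone (989959 to 1495933), had 13 to 25 calls up to day 14, 81 in DE and 68 in NE, against 18 in H9. In raw calls, 4 of 9 conditions were above H9 and the surplus came mostly from DE and NE, the conditions with the highest totals. NTF3 (5430332 to 5495299) had 16 to 23 calls up to day 14, 56 in DE and 59 in NE, against 17 in H9.

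The other 2 lie outside that stretch. PRICKLE1, a gene of planar cell polarity (42456757 to 42589746), had 23, 22, 49, 32, 30, 11 and 11 calls from the naive state to day 14, then 22 in DE and 32 in NE, against 10 in H9. In raw calls day 10 and day 14 were within 1 call of H9, and the gap lay in the earlier and the differentiated cells. Total calls were lower on both of these days, at 18504 and 20240, against 23194 in H9. SMUG1, a uracil-DNA glycosylase gene next to HOXC (54158235 to 54188985), had 24 to 44 calls up to day 14, 63 in DE and 61 in NE, against 27 in H9.

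The genes with fewer calls in HNES1 were led by HOXC4. It had 52 calls in naive cells, 60 at day 1, 73 at day 3, 82 at day 5, 67 at day 7, 69 at day 10, 93 at day 14, 117 in DE and 112 in NE, against 108 in H9. The naive value was the lowest of all conditions. HOXC5 had 32 to 68 in HNES1 and 60 in H9, and shares its annotated start and many contacts with HOXC4. HOXC11 had 7 to 31 in HNES1, against 27 in H9. TBX3, a T-box gene of limb and heart (114670255 to 114684175), had 6 to 11 calls in HNES1, against 19 in H9, with 0 of 9 above. POC1B-DUSP6, a readthrough locus that spans a centriole gene and a phosphatase gene of MAP kinase signalling, had 5 to 12 calls up to day 14, 34 in DE and 32 in NE, against 30 in H9. There DE and NE were near H9 in raw calls, although their totals were higher than that of H9. The earlier HNES1 conditions were below it.

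Over genes of every biotype, 4 lncRNA genes entered these 2 groups of 5. LOC105369617 (start 5121947), in the first 15 Mb, had the largest surplus of the HNES1 mean. It had 26 to 36 calls up to day 14, 84 in DE and 93 in NE, against 26 in H9. In raw calls much of that surplus came from DE and NE, the conditions with the highest totals. LOC105369998, TBX3-AS1 and HOXC-AS3 were among the 5 with the most negative differences, each with 0 of 9 HNES1 conditions above H9. LOC105369998 had 6 to 20 calls in HNES1, against 34 in H9, and HOXC-AS3 had 8 to 19, against 27. TBX3-AS1, which overlaps TBX3, had 13 to 29 calls in HNES1, against 33 in H9.

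**Figure D4:**
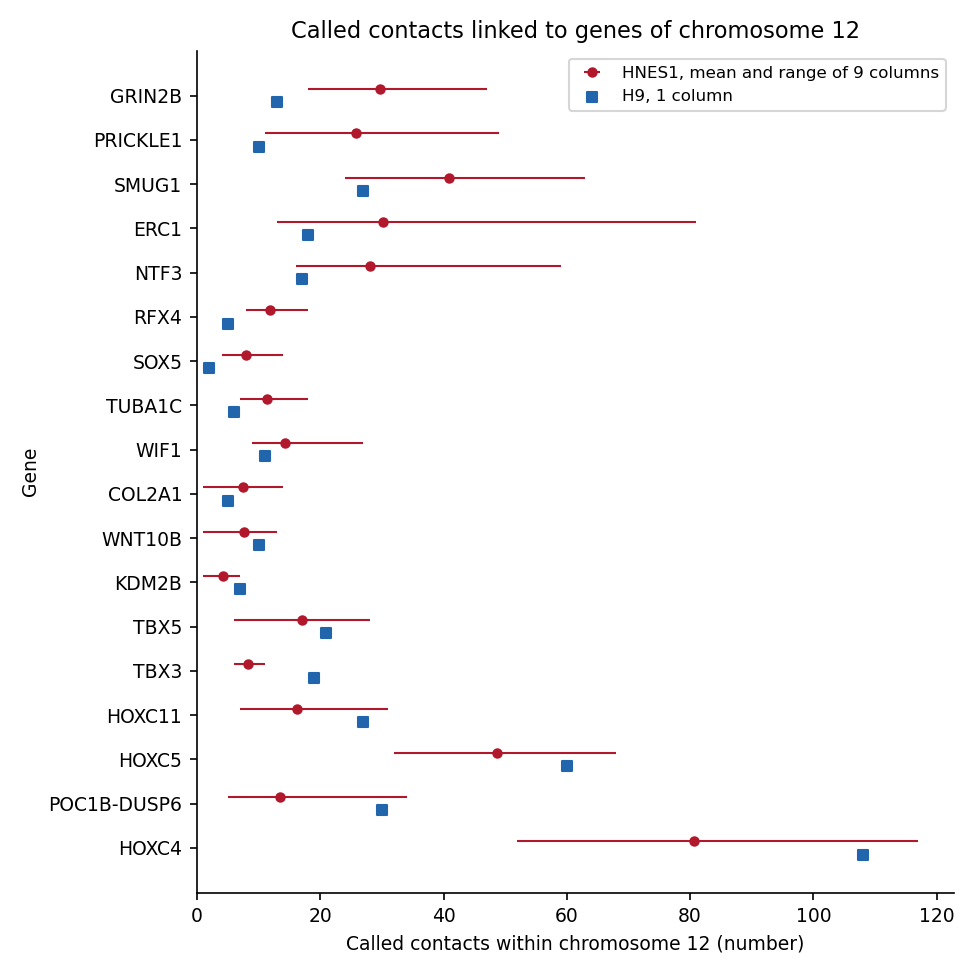
Called contacts within chromosome 12 (number, horizontal axis) linked to the named protein-coding genes with at least 7 calls in the HNES1 mean or in H9 (vertical axis, by difference). Red points and lines are the mean and the lowest to highest of 9 HNES1 conditions, and blue squares are H9. GRIN2B and PRICKLE1 stand at the top with every HNES1 value above H9, and TBX3 has every HNES1 value below it.

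Gene lists by function were read against all 798 linked genes of chromosome 12, of which 65.3% were higher in the HNES1 mean, with a median difference of 0.222 calls (64% were higher over all autosomes). None of the 9 HOXC genes had more calls in the HNES1 mean than in H9, with a median difference of -7.56. Among neural regulators 8 of 9 linked genes were higher (88.9%), with a median of 0.667. RFX4, a transcription factor gene of the neural tube, had 8 to 18 calls in HNES1, against 5 in H9, and SOX5, a gene of neuronal and cartilage development, had 4 to 14 against 2. Both were above H9 in all 9 conditions. For muscle, skeleton and growth 6 of 7 were higher (85.7%), among them COL2A1 (collagen of cartilage) with 1 to 14 calls in HNES1 and 5 in H9, MYF5 and PTHLH.

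The remaining lists were small, and their shares are read against the same 65.3%. WNT and hedgehog genes had 5 of 9 higher (55.6%), with WIF1, a secreted WNT inhibitor, at 9 to 27 in HNES1 and 11 in H9, and WNT10B, a ligand, at 1 to 13 and 10. T-box and homeobox genes of limb, heart and crest had 1 of 3 higher, with TBX5 at 6 to 28 in HNES1 and 21 in H9. FGF and receptor signalling had 3 of 5 higher (60%), with ERBB3, a receptor tyrosine kinase gene, at 0 to 3 in HNES1 and 0 in H9. Polycomb and chromatin genes had 3 of 4 higher (75%), but KDM2B, which recruits Polycomb to CG-rich DNA, had 1 to 7 in HNES1 and 7 in H9. YAF2, of the same list, had 0 to 4 in HNES1 and 0 in H9. Cell cycle genes had 3 of 4 higher (75%), with FOXM1, a transcription factor of mitosis, at 1 to 4 in HNES1 and 0 in H9. Keratins had 2 of 2 higher and housekeeping genes 5 of 6 (83.3%), with TUBA1C, a tubulin gene, at 7 to 18 and 6. TUBA1B, the housekeeping gene that was lower, had 0 to 1 in HNES1 and 1 in H9. The pluripotency genes NANOG, GDF3 and NANOGNB lie in the first 15 Mb and had 1 listed contact each, called in 1 condition.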

How the data were processed

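Poised Enhancer Capture Hi-C libraries of 10 conditions, 2 per condition, were analysed from the deposited matrix, in which each condition had 1 column. The values were CHiCAGO scores per the labels, which the authors computed per pair of fragments on both libraries together, and every listed contact reached 5 in some condition. A deposited distance column in bases was used too, with 0 value columns unused. Coordinates were on GRCh38 per the submitters' processing notes. For the aligner, the caller version, the filters and the depth, values are not given in the sources used here.

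Calls (score of 5 or more) were counted per listed bait and divided by the median of the other 21 autosomes, in each column. For other ends the divisor was the listed span in Mb. Bins of 5 Mb needed 10 baits, or 300 calls over 10 columns for other ends. Counts have exact Poisson and shares Wilson 95% intervals. With 1 column per condition, and values that chose the chromosome, no test was run.

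The chromosome, the lists and the rules were chosen with earlier results of these data known. Picked for naming were the 3 genes of each list with the largest absolute difference and the 10 baits with most calls. Picked too were the 5 highest and 5 lowest bins, the 5 contacts called in most HNES1 columns (ties by summed score), and the 5 largest and 5 most negative gene differences. The last were ranked over all genes as planned, and over protein-coding genes as an addition. Some list genes with few calls appear in the text only through the list counts. A gene that this rule names is not reported here. The RefSeq gene table and promoters (GRCh38.p14) supplied names and sequences. Counting was tested on simulated data. Alternatives were score thresholds of 3 and 10, an equal number of contacts per column, other denominators, each bait counted once, bins of 2 and 10 Mb, and leaving out HOXC, the first 15 Mb or 1 column. Python 3.11.15, pandas 2.3.3, numpy 2.4.6, scipy 1.17.1 and matplotlib 3.10.9 were used.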

Additional observations from a re-analysis of the deposited data

How the results depend on the processing

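No paired analysis was possible because each deposited column pools both libraries of a condition. The ratio within the chromosome (1.49 in HNES1, 1.27 in H9, 1.17 times) stayed above 1 in both lines under every alternative run. At a score of 3 it was 1.56 in HNES1 and 1.35 in H9, a setting that misses contacts never reaching 5. At a score of 10 it was 2.47 and 1.65, or 1.50 times, while the HNES1 to H9 value fell to 1.05 for baits between chromosomes and turned to 0.955 for other ends, and 179 baits had more calls in HNES1. The cause was not tested. With only baits that had a listed contact it was 1.45 and 1.20. With each bait counted once it was 1.20 and 1.13, or 1.06 times. With an equal number of contacts per column it was 1.52 in HNES1. Over the mean of the other autosomes it was 1.55 in HNES1. Without baits within 1 Mb of HOXC it was 1.34 and 1.08, or 1.24 times. Bins with HNES1 above H9 numbered 30 of 46 at 2 Mb and 8 of 14 at 10 Mb, against 18 of 26 at 5 Mb, where 50.1% of all autosomal bins were. Without the first 15 Mb, chosen after seeing the data, it was 1.32 in HNES1 and 1.07 times H9, and the values between chromosomes were 1.09 for baits and 1.07 for other ends. Leaving out 1 HNES1 column at a time gave 1.48 to 1.50 for HNES1, 1.17 to 1.18 times H9, and 1.17 to 1.20 and 1.17 to 1.19 between chromosomes. H9 is a single column, so its own spread is unknown, and depth per library was unknown.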
